A study of Mus musculus with 22 samples.

Results

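The genes described here are 10 mouse genes of MHC class I antigen presentation, out of 39179 gene rows in the count tables of a study of *Phf8* loss. They were taken by Ensembl identifier: the heavy chains *H2-K1*, *H2-D1*, *H2-Q4*, *H2-Q7* and *H2-T23*, the light chain *B2m*, the peptide transporter subunits *Tap1* and *Tap2*, the loading factor *Tapbp* and the immunoproteasome subunit *Psmb8*. The set was chosen by the ESC counts of 1 member: it was proposed because *H2-Q4* was higher in both knockout (KO) cultures of embryonic stem cells (ESCs) than in both wild-type (WT) cultures. Values of that contrast are given as a description without a test.

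The series holds 22 RNA-seq samples from 4 sources, with reads counted per gene. ESCs (2 WT and 2 KO cultures) came from blastocyst outgrowths kept on gelatin or feeders, and neural progenitor cells (NPCs, 3 WT and 3 KO) were isolated at E16.5 and grown in monolayer on polyornithine. The brain samples were ventral striatum (STR) and prefrontal cortex (PFC) at an age of 2 months, each with 3 WT and 3 KO samples. All samples shared the strain background B6x129SvJ, and the groups differed in *Phf8*, an X-linked histone demethylase gene, which was intact in WT and carried a targeted deletion in KO. The floxed allele was recombined in cultured ESCs of the V6.5 line before mice were made from them, so the deletion is not limited to a cell type. The labels do not say which animals or cultures gave the samples, so p-values measure only the spread between these samples.

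MHC class I molecules display short peptides from inside the cell on its surface, where CD8 T cells and natural killer cells inspect them. A heavy chain folds with beta-2 microglobulin, the *B2m* product, and receives peptides that the proteasome cuts and the TAP transporter carries into the endoplasmic reticulum, where tapasin, the *Tapbp* product, holds the empty molecule beside the transporter. *H2-K1* and *H2-D1* are the classical chains of strong and broad expression, *H2-Q4*, *H2-Q7* and *H2-T23* encode the non-classical Qb-1, Qa-2 and Qa-1 chains, and neurons and stem cells are known for low class I expression.

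The heavy chain genes lie together in the H2 region of chromosome 17 on GRCm38. *H2-K1* (ENSMUSG00000061232) spans 33996017 to 34000347 on the minus strand, *H2-D1* (ENSMUSG00000073411) 35262730 to 35267499 on the plus strand, and *H2-T23* (ENSMUSG00000067212) 36029773 to 36032855 on the minus strand. *H2-Q4* (ENSMUSG00000035929) spans 35379617 to 35385290 and *H2-Q7* (ENSMUSG00000060550) 35439155 to 35443773, both on the plus strand. *Tapbp* (ENSMUSG00000024308, 33915899 to 33929292), *Tap1* (ENSMUSG00000037321, 34187553 to 34197225), *Psmb8* (ENSMUSG00000024338, 34197721 to 34201454) and *Tap2* (ENSMUSG00000024339, 34203527 to 34216321) are on the plus strand of the same chromosome. *B2m* (ENSMUSG00000060802) stands apart on chromosome 2, from 122147686 to 122153083 on the plus strand. A B6 by 129 background can segregate different alleles over the H2 region, while the reference is the C57BL/6J sequence. Allele and genotype cannot be told apart for genes of this region in count tables.

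The promoters of the heavy chains and of *B2m* are shown because they hold the elements through which class I genes are known to respond together. RefSeq promoter windows on GRCm38.p6, from 250 bases before to 50 after the start, were found for 9 of the 10 genes, all but *Tap2*. The stretches below lie before the RefSeq start, and those of *H2-D1* and *H2-T23* lie inside the gene spans given above. All are printed 5′ to 3′ on the gene's strand, with matches to 4 motifs in capitals, none of which overlap in these stretches. They cover chr17:34000348-34000462 (*H2-K1*, minus), chr17:35262919-35263033 (*H2-D1*, plus), chr17:35379439-35379553 (*H2-Q4*, plus), chr17:35439017-35439131 (*H2-Q7*, plus), chr17:36032736-36032850 (*H2-T23*, minus) and chr2:122147523-122147637 (*B2m*, plus).
H2-K1: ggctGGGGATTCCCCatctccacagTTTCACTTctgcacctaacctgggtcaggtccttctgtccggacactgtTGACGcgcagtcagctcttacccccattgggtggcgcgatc
H2-D1: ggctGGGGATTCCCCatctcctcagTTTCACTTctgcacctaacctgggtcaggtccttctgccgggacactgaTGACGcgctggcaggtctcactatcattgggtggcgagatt
H2-Q4: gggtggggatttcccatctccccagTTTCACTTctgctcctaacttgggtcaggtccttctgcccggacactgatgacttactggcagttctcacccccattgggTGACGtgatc
H2-Q7: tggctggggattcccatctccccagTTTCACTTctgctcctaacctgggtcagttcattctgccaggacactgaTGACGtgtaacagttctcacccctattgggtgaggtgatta
H2-T23: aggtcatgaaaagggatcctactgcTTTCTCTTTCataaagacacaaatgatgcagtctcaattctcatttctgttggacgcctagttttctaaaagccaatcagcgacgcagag
B2m: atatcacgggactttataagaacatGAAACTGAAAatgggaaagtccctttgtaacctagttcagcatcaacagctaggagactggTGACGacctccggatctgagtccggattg

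The motifs were searched on both strands. The kappa B form (GGGGA, any base, TCCCC) was found in 0.0487% of all 32851 promoter windows, the interferon response form TTTCACTT in 1.6%, the interferon response repeat (TTTC, any 2 bases, TTTC) in 3.44% and the cyclic AMP response core TGACG in 20.8%. *H2-K1* and *H2-D1* held the first of these 111 and 171 bases before the RefSeq start, and neither the *H2-Q4* nor the *H2-Q7* window matched it. All 4 of *H2-K1*, *H2-D1*, *H2-Q4* and *H2-Q7* held TTTCACTT, and *H2-T23* and *B2m* held the repeat instead, which *B2m* carries on the opposite strand as GAAACTGAAA. The *H2-K1* and *H2-D1* stretches were 13 edits apart, *H2-Q4* was 16 edits from each of *H2-K1*, *H2-D1* and *H2-Q7*, and the *H2-T23* and *B2m* stretches were 59 to 66 edits from every other. A match is a run of letters and not a measured binding site, and a missing match says only that these letters are not in this window.

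The heavy chains resemble each other, and the authors' counting left out reads that aligned to several places. Of the 50-base words in the annotated transcripts, 36.4% for *H2-Q4*, 26.5% for *H2-Q7*, 14.5% for *H2-T23*, 12.8% for *H2-D1* and 9.63% for *H2-K1* also occurred in another gene, and none did for *B2m*. With 100-base words the shares were 14.1% for *H2-Q4* and 12% for *H2-Q7*, and 0.957% for *H2-K1*. Sharing was not limited to heavy chains: *Tapbp* shared 23.2% at 50 bases, mostly with *Gm19412*, and 14.8% at 100 bases. *Tap2* and *Psmb8* shared 11.6% and 11.9% at 50 bases. What this sharing does to the counts of these genes was not tested. Of the shared words of *H2-Q4*, 398 of 944 at 50 bases and 306 of 365 at 100 bases lay in *Gm11131*, an antisense transcript over the same locus, and those of *H2-Q7* were most often shared with *H2-Q10*. Counts of both genes are uncertain, since reads in shared stretches can be lost or placed on the other gene. Antisense *Gm11131* overlaps 19.1% of the exon bases of *H2-Q4*, and it held 1 to 7 counts in every sample. *Tap2* and *Psmb8* overlap antisense transcripts over 18.5% and 14.7% of their exon bases, and the library kit does not mark strand.

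Total counts on genes ranged from 5898286 to 15539811 per sample, and 43.17% to 45.53% of reads in ESCs, 33.23% to 34.32% in NPCs and 7.623% to 8.896% in the brain samples were set aside as not uniquely aligned. *Phf8* was lower in every KO sample (12.7 to 23.7 CPM, counts per 1000000 counts on genes) than in every WT sample (35.6 to 59.5 CPM). The 6 ESC markers summed to 3516 to 4193 CPM in ESCs and to 2.44 to 6.90 CPM elsewhere, and the 6 NPC markers were highest in NPCs (3013 to 4338 CPM). STR showed the striatal markers at 1184 to 1598 CPM and PFC the cortical ones at 1017 to 1222 CPM. ESC culture 2 stood apart in both genotypes: 10 fibroblast markers, among them the collagen genes *Col1a1* and *Col1a2*, summed to 192 and 179 CPM in WT and KO culture 1, and to 3742 and 4649 CPM in culture 2. In STR, KO replicate 1 held 239 CPM of hypothalamic markers against 29.3 to 55.0 CPM in the other samples, and 80.7 CPM of cortical markers against 441 to 641 CPM.

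In CPM the 10 genes together summed to 84.5 to 210 in ESCs, 317 to 409 in NPCs, 265 to 350 in STR and 299 to 350 in PFC. Every gene had its lowest WT mean in ESCs, though with TMM scaling over all samples the lowest mean moved to PFC for *Tap1* and *Tapbp*. For *H2-Q4* the WT ESC values took part in choosing the set. NPCs had the highest WT mean for *H2-K1*, *H2-Q7*, *B2m*, *Tap1*, *Tap2* and *Tapbp*, and PFC for *H2-D1*, *H2-Q4*, *H2-T23* and *Psmb8*. The plot of the 10 genes by sample shows both patterns. In tissue, fewer cells of a type and less RNA per cell cannot be told apart. Cultured cells and brain also differ in the share of reads not uniquely aligned and in the strand mark of their tables. Between them, tissue and library cannot be told apart for any of these genes.

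**Figure D1:**
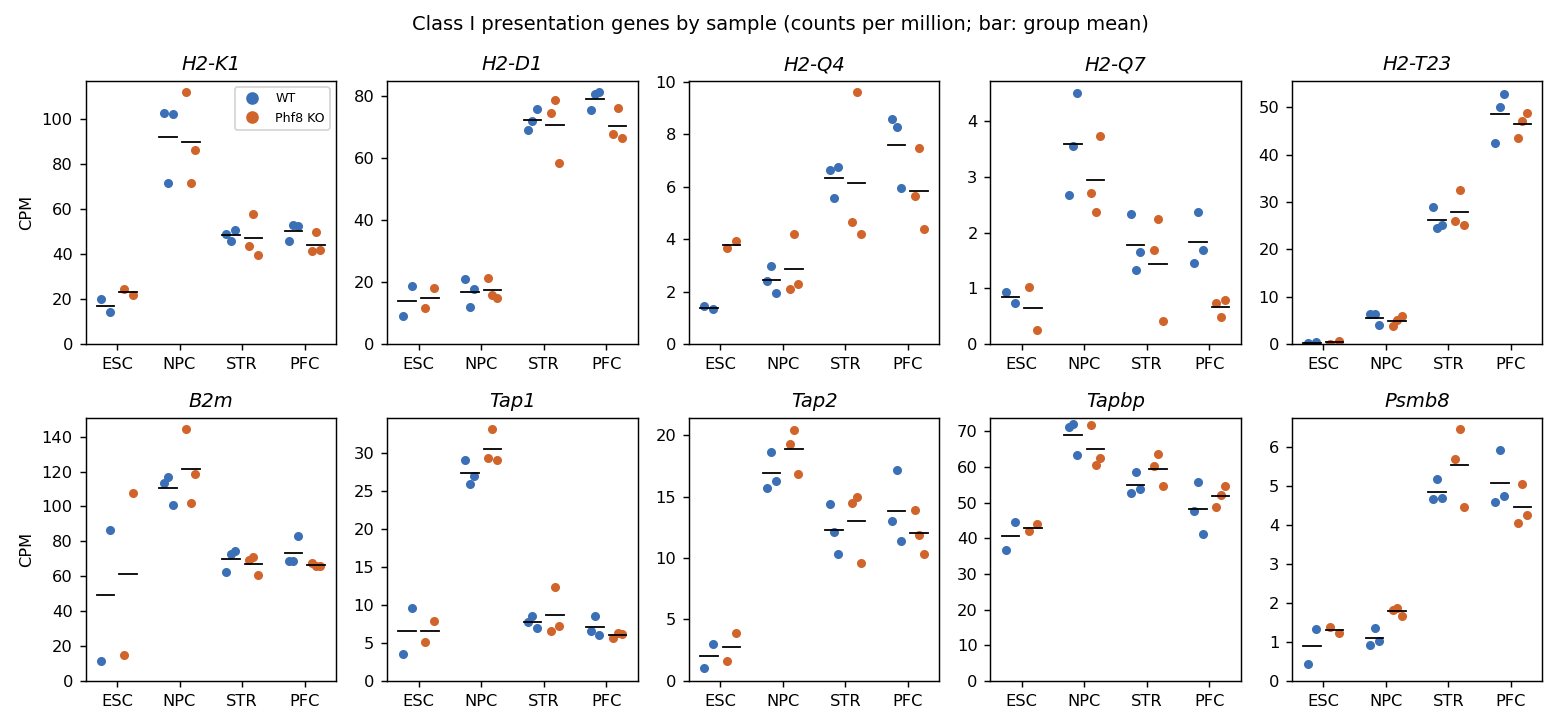
CPM (linear axes from 0) of the 10 genes in each sample, by tissue, with WT in blue, Phf8 KO in orange and the group mean as a bar (2 ESC cultures or 3 samples per group). In WT only H2-T23 differs without overlap between all 4 tissues, a separation that was not counted over all genes. KO and WT overlap for 8 of 10 genes in ESCs, NPCs and PFC and for 10 of 10 in STR. Among all genes tested, PFC had 9.78% with every KO sample below WT and 6.78% with every one above. The STR shares were 6.03% below and 7.36% above, and the NPC shares 4.31% below and 3.48% above. For the ESC cultures they were 11.8% below and 11.9% above.

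*H2-K1*, the classical K chain, measured 19.97 and 14.3 CPM in the 2 WT ESC cultures and 103, 71.5 and 103 CPM in WT NPCs. It measured 48.9, 45.7 and 50.8 CPM in WT STR and 45.8, 52.9 and 52.7 CPM in WT PFC. NPCs were highest, ESCs lowest, and both brain regions overlapped in between. *H2-D1*, the classical D chain, followed another order: 9.01 and 18.7 CPM in WT ESCs, 20.9, 11.95 and 17.7 CPM in WT NPCs, 68.9, 71.8 and 75.8 CPM in STR, and 75.4, 80.5 and 81.2 CPM in PFC. Its cultured cells overlapped each other and lay below both brain regions, which also overlapped.

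The balance between the classical chains therefore differed between the tissues as counted. Reads not uniquely aligned made up 33.23% to 34.32% in NPCs and 7.623% to 8.896% in PFC. The part of this difference in the ratio was not tested. The ratio of *H2-K1* to *H2-D1* counts was 4.92 to 5.99 in WT NPCs and 4.47 to 5.81 in KO NPCs. In STR it was 0.637 to 0.710 in WT and 0.586 to 0.736 in KO, and in PFC 0.607 to 0.657 in WT and 0.609 to 0.653 in KO. ESCs ranged from 0.765 to 2.22 in WT and 1.22 to 2.09 in KO. All 6 NPC samples lay above all 12 brain samples, and the genotypes overlapped in every tissue.

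**Figure D2:**
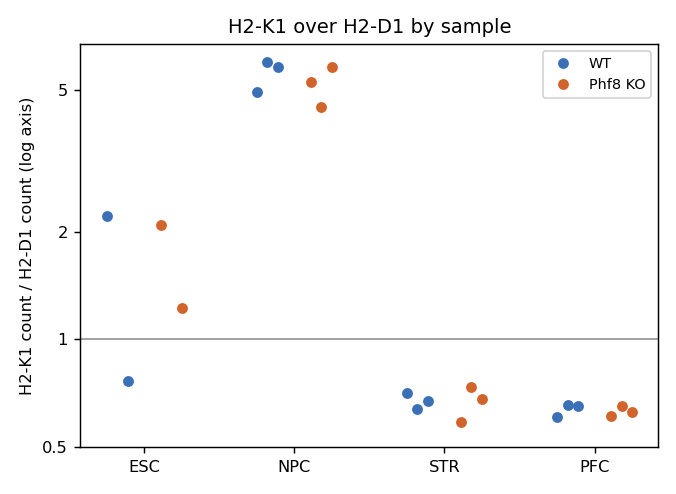
Ratio of H2-K1 to H2-D1 counts (log axis) in each of the 22 samples by tissue, WT in blue and Phf8 KO in orange, with a line at 1. NPC samples sit between 4.47 and 5.99, and the brain samples between 0.586 and 0.736.

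Of the non-classical chains, *H2-Q4* measured 1.45 and 1.34 CPM in WT ESCs, 2.40, 2.97 and 1.93 CPM in NPCs, 6.63, 5.58 and 6.76 CPM in STR and 8.58, 8.28 and 5.93 CPM in PFC. Its WT levels separated ESCs, NPCs and brain, with STR and PFC overlapping. Nothing is read from the separation of ESCs, since the WT ESC values of *H2-Q4* took part in choosing the set. The KO ESC cultures, at 3.66 and 3.93 CPM, lay within the range of the NPC samples of both genotypes (1.93 to 4.18 CPM). *H2-Q7* was low throughout: 0.935 and 0.745 CPM in WT ESCs, 2.68, 3.56 and 4.51 CPM in NPCs, and 1.33 to 2.37 CPM in the 6 WT brain samples, which rest on 10 to 24 counts each. *H2-T23* had the widest range, from 0.170 and 0.522 CPM in WT ESCs (2 and 7 counts) through 6.28, 6.27 and 4.05 CPM in NPCs and 28.9, 24.6 and 25.1 CPM in STR to 42.5, 50.1 and 52.9 CPM in PFC. Its 4 tissues did not overlap, and the mean in PFC was 140-fold that in ESCs.

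*B2m*, shared by all class I chains, measured 11.3 and 86.7 CPM in WT ESCs, 113, 117 and 101 CPM in NPCs, 62.4, 72.9 and 74.7 CPM in STR, and 68.7, 68.8 and 83.1 CPM in PFC. The ESC values straddled those of the brain, so ESCs and STR could not be ordered. *Tap1* was 3.57 and 9.61 CPM in WT ESCs, 29.1, 25.9 and 27.0 CPM in NPCs, and 6.10 to 8.57 CPM in the 6 WT brain samples. *Tap2* was 1.02 and 2.98 CPM in WT ESCs, 15.7, 18.7 and 16.3 CPM in NPCs, and 10.4 to 17.2 CPM in brain. For *Tap1* the brain samples lay within the range of the ESC cultures, while for *Tap2* PFC overlapped NPCs.

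*Tapbp* varied least, with WT means 1.7-fold apart, from 36.6 and 44.5 CPM in ESCs to 71.3, 72.0 and 63.5 CPM in NPCs. *Psmb8*, which replaces a constitutive proteasome subunit in cells exposed to interferon, measured 0.425 and 1.34 CPM in WT ESCs, 0.917, 1.36 and 1.03 CPM in NPCs, and 4.59 to 5.91 CPM in the 6 WT brain samples. Both cultured cell types lay below both brain regions for this gene.

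Per length, as RPKM (CPM divided by exon length in kilobases), *B2m* was the highest of the 10 genes in the WT samples of every tissue, at 57 ± 62 in ESCs (SD, n = 2), 128 ± 9.84 in NPCs, 81.4 ± 7.72 in STR and 85.5 ± 9.61 in PFC (SD, n = 3 each). The lowest was *H2-T23* in ESCs at 0.120 ± 0.0861 (SD, n = 2), *Psmb8* in NPCs at 0.326 ± 0.0674 (SD, n = 3), and *H2-Q7* in STR and PFC at 0.415 ± 0.119 and 0.431 ± 0.111 (SD, n = 3). In both brain regions *H2-D1* stood second, at 28 ± 1.34 RPKM in STR and 30.7 ± 1.23 in PFC, followed by *H2-K1*. In NPCs *H2-K1* stood second at 31.4 ± 6.11 RPKM. In ESCs *Tapbp* did, at 11.2 ± 1.53 RPKM (SD, n = 2), against 5.83 ± 1.36 for *H2-K1* and 5.37 ± 2.66 for *H2-D1*.

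Tested with edgeR's quasi-likelihood test over all genes, 6 of the 10 genes were higher in WT NPCs than in WT ESCs at an FDR (Benjamini-Hochberg adjusted p) under 0.05 and none was lower. In this comparison 71.2% of all 15938 genes passed, 34.6% upward and 36.6% downward. The WT samples are the same as in the KO comparisons. *H2-K1* rose by 2.48 on the log2 scale (SE 0.26, FDR 0.000714), *H2-Q7* by 2.13 (SE 0.38, FDR 0.00416) and *H2-T23* by 3.98 (SE 0.54, FDR 0.00158). *Tap1* rose by 2.09 (SE 0.43, FDR 0.00816), *Tap2* by 3.10 (SE 0.47, FDR 0.00240) and *Tapbp* by 0.81 (SE 0.13, FDR 0.00311). *H2-D1* (log2 fold change 0.33, SE 0.40), *B2m* (1.21, SE 0.80) and *Psmb8* (0.33, SE 0.54) did not pass. *H2-Q4* was at 0.84 (SE 0.32), given as a description, since its WT ESC values took part in choosing the set. Over both genotypes its mean was 2.594 CPM in ESCs and 2.645 CPM in NPCs. The median over the 10 genes, *H2-Q4* among them, was 1.65, against -0.02 over all genes tested.

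One ESC culture decided the *B2m* value. Without WT ESC culture 2, the one with 3742 CPM of fibroblast markers, the log2 fold change of *B2m* was 3.29 (SE 0.17, FDR 0.000524), and without culture 1 it was 0.39 (SE 0.14, FDR 0.0639). The 6 genes named above passed under both. The part of fibroblast RNA in these values was not tested.

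Other genes of the pathway moved both ways between WT NPCs and WT ESCs. Of 13 other class I heavy chains tested, 3 were higher and 5 lower. *Cd1d1* (3.13, SE 0.23, FDR 0.000217), *H2-T22* (3.07, SE 0.30, FDR 0.000522) and *Mr1* (4.82, SE 0.70, FDR 0.00241), which present lipids, bind T cell receptors of gamma delta cells and present vitamin metabolites, were higher on the log2 scale. *H2-M5* fell by 6.04 (SE 0.20, FDR 4.4e-05), from 66.1 and 78.2 CPM in WT ESCs to 0.917 to 1.29 CPM in WT NPCs, and *H2-Bl* and *H2-T3* were also lower, *H2-T3* with 0 counts in every WT NPC culture. Of 13 genes of peptide supply and loading, 3 were higher, led by the peptide trimming enzyme *Erap1* (2.45, SE 0.15, FDR 0.000139), and 4 lower, led by the constitutive proteasome subunits *Psmb6* (-0.73, SE 0.08), *Psmb7* (-0.77, SE 0.09) and *Psmb5* (-0.89, SE 0.11). Of 22 genes of class I transcription and interferon signalling, 10 were higher, led by *Rfx5*, *Jak2* and *Rfxank*, and 5 lower, among them *Irf1* (-1.87, SE 0.14, FDR 0.000249), which activates class I promoters. *Nlrc5*, the class I transactivator, was at 4 to 21 counts per sample and did not pass (0.35, SE 0.67, FDR 0.663). Of 16 interferon-stimulated genes, 2 were higher (*Ifit2* and *Gbp3*) and 6 lower, led by *Bst2* (-4.03, SE 0.21, FDR 0.000109), *Parp14* and *Ddx58*. Of 5 MHC class II genes tested, *Ciita*, *H2-DMa* and *H2-Ab1* were higher, and *Cd74* and *H2-Eb1* lower.

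Between the brain regions, 1 of the 10 genes differed in WT: *H2-T23* was higher in PFC than in STR by 0.92 on the log2 scale (SE 0.12, FDR 0.000208), with 3 of 3 PFC samples above 3 of 3 STR samples. Of all 15555 genes, 24.4% passed, 13.0% upward and 11.4% downward. The other 9 genes had log2 differences from -0.15 (*Tapbp*) to 0.32 (*H2-Q4*), with 95% intervals for *H2-K1* of -0.09 to 0.28 and for *B2m* of -0.11 to 0.33. In the other lists, the class I chains *H2-Q2* (-3.69, SE 0.39, FDR 6e-05), *Cd1d1* (-1.63, SE 0.27, FDR 0.00148) and *H2-T10* (-0.95, SE 0.24, FDR 0.0140) were lower in PFC. The immunoproteasome subunit *Psmb10* (0.42, SE 0.10, FDR 0.0130), the aminopeptidase *Lnpep* (0.89, SE 0.28, FDR 0.0416), *Irf1* (0.62, SE 0.18, FDR 0.0267), *Jak1*, *Ifngr2*, *Ifit2* and *Ifih1* were higher, and *Psme1* and *H2-DMa* were lower. Microglia markers summed to 662 to 677 CPM in WT STR and to 590 to 628 CPM in WT PFC, and their part in these differences was not tested.

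Over the 22 samples, pairs of the 10 genes ranged in Pearson's r from 0.954 (*H2-D1* with *Psmb8*) to -0.444 (*H2-D1* with *Tap1*) on log2(CPM + 0.5). *H2-K1* was most like *Tap2* (0.843). Among 16157 other genes at a mean of at least 1 CPM, those most like the mean of the 10 were *Smpdl3a* (r = 0.982), *Josd2* (0.981), *Slc35a2* (0.979), *Zhx2* (0.978) and *Slc35e4* (0.978). Those most like *H2-Q4* were *Zscan26* (0.914), *Pnpla7* (0.909), *Ddx55* (0.895), *Cish* (0.889) and *Nagpa* (0.885). These values describe samples that fall into 4 tissues and share tissue, library type and depth.

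In ESCs, the contrast that chose the genes, *H2-Q4* measured 1.45 and 1.34 CPM in WT and 3.66 and 3.93 CPM in KO cultures (17 and 18 against 50 and 45 counts). Both KO cultures lay above both WT cultures, as they did for 11.9% of all 15080 genes tested, with 11.8% the other way round and 0.00% past the FDR threshold (513 genes with the culture number as a block). Means were 1.39 ± 0.073 in WT and 3.795 ± 0.19 CPM in KO (SD, n = 2), and the fitted log2 fold change was 1.44 (SE 0.27). A log2 fold change above 1 was found for 0.451% of genes. These values chose the set, so nothing is read from such shares. Within culture number 1 the KO to WT ratio was 2.53, and within number 2 it was 2.93. The overlapping antisense *Gm11131* held 1 and 4 counts in WT and 6 and 2 in KO.

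*H2-K1* measured 19.97 and 14.3 CPM in WT and 24.5 and 22 CPM in KO ESCs, also without overlap (log2 fold change 0.44, SE 0.21, and 0.22 to 0.69 with 1 culture left out). *H2-D1* overlapped at 9.01 and 18.7 against 11.7 and 18.0 CPM, and *H2-Q7*, at 3 to 14 counts per culture, was 0.935 and 0.745 against 1.03 and 0.262 CPM. *H2-T23* held 2, 7, 1 and 8 counts and was below the expression filter. Across the 9 genes that passed the filter, 7 log2 fold changes were above 0 and 2 below, with a median of 0.32 against 0.01 over all genes, of which 52.6% were above 0. Without WT culture 2 that median was 0.87, without WT culture 1 -0.12, without KO culture 1 0.37 and without KO culture 2 0.05. Each of these fits leaves the culture numbers unequal between KO and WT, so a difference between cultures 1 and 2 enters the KO value. Among other heavy chains, *H2-Q6* held 14 and 12 counts in WT and 17 and 11 in KO, and *H2-Q10* held 12 and 12 against 16 and 11. *H2-T22* held 13 and 22 counts in WT and 34 and 30 in KO. Of 13 other class I heavy chains that passed the filter, 9 were above 0 (median 0.09). Of 20 interferon-stimulated genes, 14 were below 0 (median -0.20).

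*B2m* in ESCs differed most between the culture numbers: 11.3 and 86.7 CPM in WT, 14.9 and 108 CPM in KO. Culture 2 was 7.67-fold culture 1 in WT and 7.26-fold in KO, and KO was 1.32-fold WT in culture 1 and 1.24-fold in culture 2. *Tap2* was 2.92-fold and 2.44-fold higher in culture 2, and *H2-T23*, on 1 to 8 counts, 3.07-fold and 9.54-fold. These 3 of the 10 genes exceeded 2-fold in both genotypes. So did 6.52% of 14401 genes at an ESC mean of at least 1 CPM. That limit leaves out *H2-T23* (mean 0.366 CPM) and *H2-Q7* (0.742 CPM) but keeps *B2m*, *Tap2* and the other members. *H2-Q4* (0.928 and 1.07-fold) and *H2-K1* (0.716 and 0.900-fold) were not higher in culture 2 of both genotypes. The fibroblast markers rose 19.5-fold in WT and 26-fold in KO from culture 1 to culture 2, with 10 of 10 genes higher in both. Of 22 interferon-stimulated genes, 19 were higher in culture 2 of both genotypes, 11 of them more than 2-fold. The share of all genes higher there without a fold limit was not counted. *Isg15*, a ubiquitin-like protein of the interferon response, was 0 and 9.69 CPM in WT and 0.220 and 7.94 CPM in KO, and *Ifit1* was 0 and 11.9 CPM in WT and 0.439 and 8.82 CPM in KO. The part of feeder RNA in these values was not tested.

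**Figure D3:**
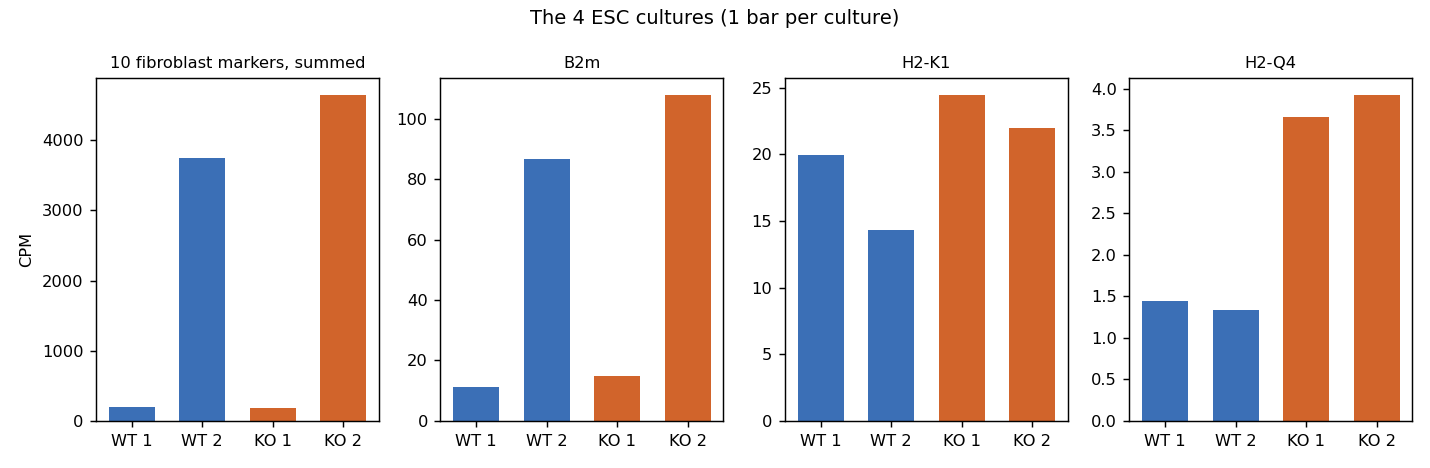
CPM (linear axes from 0) in the 4 ESC cultures, 1 bar per culture, for 10 summed fibroblast markers, B2m, H2-K1 and H2-Q4, with WT in blue and Phf8 KO in orange. The fibroblast markers and B2m are high in culture 2 of both genotypes, while H2-Q4 is at 1.45 and 1.34 CPM in WT and 3.66 and 3.93 CPM in KO.

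In NPCs none of the 10 genes passed the test between KO and WT, where 0.00697% of all 14351 genes did (1 gene, or 3 with the culture number as a block). *H2-Q4* measured 2.40, 2.97 and 1.93 CPM in WT and 2.11, 4.18 and 2.28 CPM in KO NPCs, which overlapped (log2 fold change 0.24, SE 0.32, 95% interval -0.39 to 0.87, FDR 0.9998). *Psmb8* measured 0.917, 1.36 and 1.03 CPM in WT and 1.81, 1.87 and 1.66 CPM in KO NPCs, on 13 to 26 counts. Every KO culture lay above every WT culture for *Psmb8* and for *Tap1*, as for 3.48% of genes. The reverse held for no member and for 4.31% of genes. The log2 fold change of *Psmb8* was 0.71 (SE 0.25), its unadjusted p in the edgeR fit was 0.0279 and its FDR 0.9998. *Tap1* measured 29.1, 25.9 and 27.0 CPM in WT and 29.4, 33.2 and 29.2 CPM in KO, a log2 fold change of 0.17 (SE 0.09).

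*H2-K1* in NPCs followed the culture number: 71.5 CPM in WT and 71.5 CPM in KO culture 2, against 103 and 103 CPM in WT and 112 and 86.2 CPM in KO cultures 1 and 3. Oligodendrocyte markers summed to 200 and 374 CPM in culture 2 and to 1639 to 2677 CPM in cultures 1 and 3, and their part in the *H2-K1* level was not tested. The log2 fold changes of the remaining genes were -0.02 for *H2-K1*, 0.05 for *H2-D1*, -0.27 for *H2-Q7*, -0.15 for *H2-T23*, 0.16 for *B2m*, 0.17 for *Tap2* and -0.07 for *Tapbp*. In the other lists no gene passed. Genes with the smallest p-value of their list were *H2-T24* (1.79, SE 0.80), *Psmb5* (-0.60, SE 0.10), *Mx2* (0.48, SE 0.30) and *Ciita* (0.66, SE 0.50), all with an FDR of 0.9998. Of 14 interferon-stimulated genes, 13 had a log2 fold change above 0, with a median of 0.24 against 0.00 over all genes, of which 51.1% were above 0.

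In STR none of the 10 genes passed either, where 0.00% of 15476 genes did (0 genes, against 1346 or 8.70% at an unadjusted p under 0.05, 53 by DESeq2 and 104 by edgeR's exact test), and KO and WT overlapped for all 10, where 7.36% of genes had every KO sample above WT and 6.03% below. *H2-Q4* measured 6.63, 5.58 and 6.76 CPM in WT and 4.66, 9.61 and 4.19 CPM in KO (log2 fold change -0.04, SE 0.30, 95% interval -0.63 to 0.56). KO replicate 2 was the highest STR sample for *H2-K1* (58.0 CPM), *H2-D1* (78.8 CPM), *H2-Q4*, *H2-T23* (32.5 CPM), *Tap1* (12.4 CPM), *Tap2* (15.0 CPM), *Tapbp* (63.6 CPM) and *Psmb8* (6.45 CPM). The same sample had the highest sum of 22 interferon-stimulated genes, 180 CPM against 96.8 to 146 CPM in the other STR samples. KO replicate 3, with 96.8 CPM of these genes, was the lowest for *H2-K1* (39.8 CPM), *H2-D1* (58.5 CPM), *H2-Q4*, *H2-Q7* (0.419 CPM, 3 counts), *B2m* (60.9 CPM), *Tap2* (9.64 CPM) and *Psmb8* (4.47 CPM).

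The 10 log2 fold changes in STR ran from -0.28 for *H2-Q7* (SE 0.49) to 0.20 for *Psmb8* (SE 0.22), with a median of 0.03 against 0.00 over all genes. The 95% intervals were -0.28 to 0.21 for *H2-K1*, -0.22 to 0.18 for *H2-D1* and -0.24 to 0.14 for *B2m*. No gene of the other lists passed. Of 10 other class I heavy chains tested, 7 were above 0 (median 0.30), as were 50.6% of all genes. In the edgeR fit 5 of these 10 had an unadjusted p under 0.05, against 8.70% of all genes. Of 13 genes of peptide supply and loading and of 21 interferon-stimulated genes 0 did. Genes with the smallest p-value of their list were *H2-Q2* (1.01, SE 0.26, FDR 0.411), *Lnpep* (0.70, SE 0.33, FDR 0.608), *Ifit2* (0.37, SE 0.18, FDR 0.622) and *H2-DMb2* (0.63, SE 0.41, FDR 0.723).

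In PFC most estimates were below 0 in KO, and none of the 10 genes passed, where 0.638% of 15364 genes did (98 genes). *H2-Q7* measured 1.45, 2.37 and 1.70 CPM in WT and 0.737, 0.481 and 0.796 CPM in KO, on 12, 24 and 10 counts against 6, 4 and 6. All KO samples were below all WT samples for *H2-Q7* and for *B2m*, as for 9.78% of genes. The reverse held for no member and for 6.78% of genes. The log2 fold change of *H2-Q7* was -1.46 (SE 0.38), with an unadjusted p of 0.00227 in the edgeR fit and an FDR of 0.119. By edgeR's exact test its FDR was 0.0445, and over the alternatives it ran from 0.0445 to 0.43. *H2-Q6*, its neighbour in the *H2-Q* cluster, held 25, 46 and 10 counts in WT and 11, 14 and 13 in KO (-1.01, SE 0.34, FDR 0.247). Reads that align to both are not counted on either gene.

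*B2m* measured 68.7, 68.8 and 83.1 CPM in WT and 67.5, 65.9 and 66.0 CPM in KO PFC, a log2 fold change of -0.13 (SE 0.10, 95% interval -0.32 to 0.05, FDR 0.698). *H2-Q4* overlapped at 8.58, 8.28 and 5.93 CPM in WT against 5.65, 7.46 and 4.38 CPM in KO (-0.39, SE 0.22, FDR 0.577). *H2-K1* was 45.8, 52.9 and 52.7 CPM in WT against 41.4, 49.8 and 41.7 CPM in KO (-0.18, SE 0.10), and *H2-D1* was 75.4, 80.5 and 81.2 CPM against 67.9, 76.2 and 66.6 CPM (-0.16, SE 0.08). In all, 9 of the 10 log2 fold changes were below 0, with a median of -0.19, where the median over all genes was -0.02 and 44.1% of all genes were above 0. *Tapbp* was the exception at 0.11 (SE 0.10).

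Several other lists also lay mostly below 0 in PFC: 17 of 19 interferon-stimulated genes (median -0.23), 11 of 12 microglia markers (-0.13) and 10 of 10 endothelial markers (-0.26). Below 0 were also 7 of 9 other class I heavy chains (-0.09) and 9 of 13 genes of peptide supply and loading (-0.04). Others did not: 5 of 6 cortical neuron markers (median 0.09) and 4 of 6 striatal neuron markers (0.22) had log2 fold changes above 0. So did 13 of 22 genes of class I transcription and interferon signalling (0.02), and 3 MHC class II genes were above and 3 below 0. Microglia markers summed to 590 to 628 CPM in WT and 561 to 572 CPM in KO, and endothelial markers to 423 to 556 CPM in WT and 370 to 455 CPM in KO. Of 6 oligodendrocyte markers, 3 passed and were lower, led by *Mog* (-0.95, SE 0.10, FDR 0.00369). Their sum was 1856 to 2427 CPM in WT and 1521 to 1602 CPM in KO. Of 6 astrocyte markers, 5 were below 0 and *Gfap* passed (-0.49, SE 0.07, FDR 0.0114), with sums of 2100 to 2206 CPM in WT and 1998 to 2101 CPM in KO. No defining marker of these lists was at 0 in PFC, and their part in the class I values was not tested. In the other pathway lists no gene passed, and the smallest p-values belonged to *H2-Q6*, *Erap1* (-0.26, SE 0.13), *Nfya* (0.31, SE 0.10), *Xaf1* (-1.15, SE 0.51) and *H2-DMa* (0.13, SE 0.11).

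**Figure D4:**
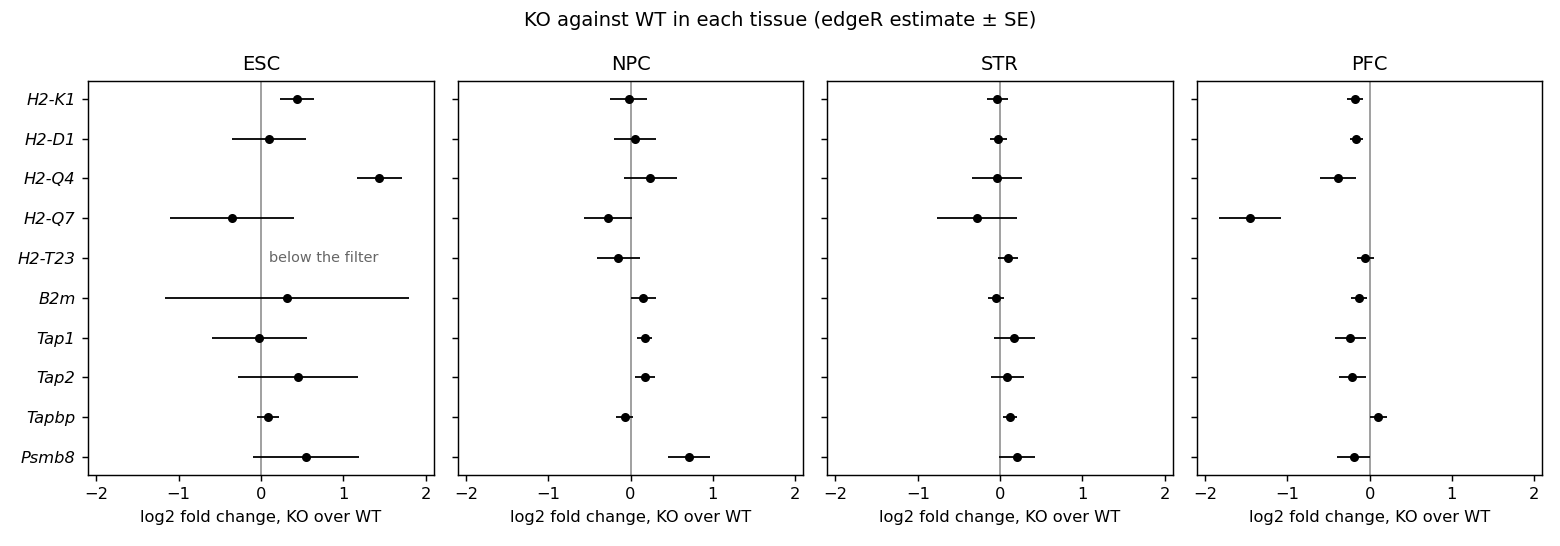
Log2 fold change of KO over WT with its standard error for the 10 genes in each tissue, from the edgeR fit. H2-Q4 in ESCs (1.44) and H2-Q7 in PFC (-1.46) lie farthest from 0, and H2-T23 was below the expression filter in ESCs.

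Whether the KO effect differed between PFC and STR was tested by an interaction term. None of the 10 genes passed, against 0.00624% of 16028 genes. The largest difference was that of *H2-Q7* at -1.14 on the log2 scale (SE 0.65, FDR 0.868), and that of *H2-Q4* was -0.32 (SE 0.40, FDR 1). The KO values of *H2-Q4* side by side were 1.44 for ESCs, 0.24 for NPCs, -0.04 for STR and -0.39 for PFC, and the difference of ESCs from the other tissues was not tested.

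Summed over the 5 heavy chains, which a read moved between these 5 does not change but one lost or placed on another gene does, the log2 fold change of KO over WT was 0.35 for ESCs (SE 0.12, as a description), -0.02 for NPCs (SE 0.20), -0.01 for STR (SE 0.10) and -0.15 for PFC (SE 0.08, FDR 0.503). The sum was 1.89 higher in WT NPCs than in WT ESCs (SE 0.20, FDR 0.000691) and 0.31 higher in WT PFC than in WT STR (SE 0.08, FDR 0.0130). The WT ESC values of *H2-Q4*, which took part in choosing the set, enter the first of these.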

How the data were processed

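RNA-seq counts of 22 samples were taken from 1 table per sample. The authors aligned reads with STAR to mm10 (GRCm38), after base calling for which the labels name CASAVA 1.7, and counted them per gene with HTSeq; the deposited values are raw counts without normalization. No version of either tool is given in the sources used here. The cell tables are marked as not stranded and the brain tables carry no such mark. Reads aligned to several places were not counted, which lowers genes with near copies.

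CPM used the total on genes and RPKM the union of exon lengths from GENCODE M21, which matched 37693 of 39179 identifiers and 99.709% of counts. Promoters came from RefSeq (GRCm38.p6). Samples were grouped by their labels. KO was compared with WT in each tissue, WT NPC with WT ESC, WT PFC with WT STR, and the KO effect between PFC and STR, with edgeR 4.0.16 in R 4.3.3 (quasi-likelihood, robust, TMM, expression filter, no block, FDR 0.05). Alternatives were DESeq2 1.42.0, RLE factors, no filter, the exact test, a log2 fold change beyond 1, a replicate block, the summed heavy chains and each sample left out. With 3 samples against 3, an exact permutation test cannot go below p = 0.1. The code was tested on simulated data. The members and lists were chosen with earlier results of these data known. The genes named are the 10 members, genes of each pathway list with an FDR under 0.05 (up to 3 each way, otherwise the smallest p), marker genes, and the 5 genes most like the members' mean and *H2-Q4*; other genes, such as *Nlrc5*, *H2-Q6*, *H2-Q10*, *H2-T22*, *Isg15* and *Ifit1* in ESCs, were named after their values were seen. *H2-Q8*, *H2-Q9* and *H2-T9* were not matched and are not analysed here. A listed gene is not reported here.

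Every pair of replicates differed by more than counting noise, with a chi-square of 1.89 to 40.5 times its degrees of freedom. Same-numbered WT and KO NPC cultures deviated together from their group means (r = 0.569, 0.705 and 0.524), so the numbers pair NPC cultures. The NPC values given for KO against WT came from edgeR fits without this pairing. With the culture number as a block in that fit, *Psmb8* was at 0.71 (FDR 0.449) and *H2-Q4* at 0.21 (FDR 0.769). Counting error alone is large for genes with few counts.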

Additional observations from a re-analysis of the deposited data

How the results depend on the processing

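No member was called between KO and WT in NPCs or STR, or in the PFC and STR difference, under any alternative run. In PFC edgeR's exact test called 1 (*H2-Q7*), and in WT PFC against WT STR a log2 fold change beyond 1 left 0 members and 1292 genes. In WT NPCs against WT ESCs 5 to 7 members were called over all alternatives. Leaving out a sample leaves fewer samples in the fit. The cause of the other moves was not tested.

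All genes called moved as follows. DESeq2 called 3 for ESCs, 5 for NPCs, 53 for STR, 182 for PFC and 19 for the difference. The exact test called 2 for ESCs, 2 for NPCs, 104 for STR and 375 for PFC. Without a filter 2 were called in NPCs, 27 in STR, 379 in PFC and 2 for the difference, and beyond a log2 fold change of 1, 18 in PFC. With the replicate number as a block, 513 genes were called in ESCs, 3 in NPCs and 8 in STR. The block changed no call of a member in these tests. Brain samples share only a number (r from -0.0320 to 0.133). Same-numbered ESC cultures deviated together (r = 0.876), and the labels do not say what their number marks. With 2 cultures per genotype both pairs give the same r by construction, so this is 1 value. With a sample left out 0 to 0 were called in NPCs, 0 to 2 in STR, 2 to 154 in PFC (2 without KO replicate 2 or 3) and 1 to 3 for the difference.

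Leaving out 1 sample turned the sign of some log2 fold changes, none of which passed a test, with these ranges. No test was made in ESC KO against WT. There *H2-Q4* ranged from 1.39 to 1.48. Nothing is read from its unchanged sign, since it was chosen because both KO cultures lay above both WT cultures. The ranges of the members that changed sign there were *B2m* -1.73 to 2.44, *H2-Q7* -1.65 to 0.29 and *Tap2* -0.32 to 1.43. Further ranges were *H2-D1* -0.34 to 0.72, *Tap1* -0.57 to 0.87, *Psmb8* -0.045 to 1.60 and *Tapbp* -0.060 to 0.23. In NPC KO against WT they were *H2-K1* -0.23 to 0.13, *H2-D1* -0.15 to 0.25, *B2m* -0.0020 to 0.29 and *H2-Q4* -0.11 to 0.40. In STR KO against WT they were *H2-K1* -0.19 to 0.054, *H2-D1* -0.095 to 0.074, *H2-Q4* -0.49 to 0.15, *Tap2* -0.019 to 0.24, *H2-T23* -0.015 to 0.17, *Tap1* -0.15 to 0.34 and *H2-Q7* -0.72 to 0.12. In PFC KO against WT they were *H2-T23* -0.14 to 0.026. In WT NPC against WT ESC they were *H2-D1* -0.10 to 0.91 and *Psmb8* -0.25 to 1.35. In WT PFC against WT STR they were *H2-Q7* -0.14 to 0.37. In the difference of the KO effect they were *B2m* -0.14 to 0.052, *Tapbp* -0.068 to 0.099, *H2-K1* -0.22 to 0.018 and *H2-Q4* -0.54 to 0.12. Without a filter the difference of the KO effect for *Tapbp* was -0.0045.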
